A study of Gallus gallus with 6 samples.

Results

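The genes described here encode the enzymes that make and break down the cyclic nucleotides cAMP and cGMP, together with the subunits of protein kinase A (PKA), the kinase that cAMP activates. They were taken by name from the gene table, as every gene whose symbol starts with PDE or ADCY and a digit, or with GUCY, PRKAR or PRKAC. The rule found 50 of the 24433 genes of the table. It is a rule on names only, and 3 of the 50 are known for roles outside cyclic nucleotide turnover and PKA. PDE6D encodes a carrier of prenylated proteins, PDE12 an exonuclease that acts on oligoadenylate and poly(A), and PDE4DIP the scaffold protein myomegalin.

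RNA was sequenced from chicken primary myoblasts, muscle precursor cells from leg muscle, in 3 libraries with ANKRD9 overexpression and 3 with the empty expression plasmid pcDNA3.1 as control. The ANKRD9 gene encodes a protein with ankyrin repeats, and the study's title concerns its part in IMP and purine metabolism. The labels give no age, sex, breed or culture time, and do not say whether replicates are separate cultures, so each p-value reflects the spread among these libraries alone, which may be technical.

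Adenylyl cyclases make cAMP from ATP when stimulatory G proteins activate them, and guanylyl cyclases make cGMP from GTP in response to nitric oxide or to peptide hormones. Phosphodiesterases hydrolyse both messengers to AMP and GMP and so limit how long and how far the signal spreads. Inactive PKA is a complex of regulatory and catalytic subunits, and cAMP binding to the regulatory subunits releases the catalytic activity. In muscle precursors the cAMP pathway is known for its part in proliferation, differentiation and cell fusion.

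The deposited FPKM (fragments per kilobase of gene length, scaled by one factor per library) could be turned back into whole reads, 16158627 to 26310089 of them in a library. Across genes, Pearson's r lay between 0.993 and 0.995 for libraries of one group and between 0.982 and 0.988 for libraries of different groups, as a description of the libraries only. ANKRD9 stood at 90.5, 104 and 101 FPKM in the overexpressing libraries and at 9.46, 8.16 and 10.1 FPKM in the control libraries, so the labels and the targeted gene go together (log2 fold change 3.29, limma, adjusted p = 5.44e-06; exact two-sided permutation test p = 0.1, the smallest that 3 against 3 allow). The myoblast label goes with the data: MYF5, MYOD1 and MYOG, which encode defining regulators of the lineage, had means of 333, 157.5 and 157.8 FPKM over the 6 libraries. Of 14 tested myoblast and muscle markers, 4 were higher with ANKRD9, 2 lower, and 8 did not pass. The share that passed was 42.9%, beside 36.0% of all genes tested. MYOD1 was among the lower ones, at 116 ± 11.3 against 199 ± 6.77 FPKM (SD, n = 3 each), and MYF5 among the higher ones, at 370.2 ± 22.3 against 296 ± 14.8 FPKM. PAX3, also on the list, was under the filter at a mean of 0.646 FPKM. The summed level of the list was 2115 to 2366 FPKM with ANKRD9 and 1899 to 2166 FPKM in the controls.

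Markers of other cell types moved with the groups, as did many genes: 36.0% of all genes tested passed, 16.3% higher and 19.8% lower. The counts below come from 4 to 12 tested genes per list and were not tested against these shares. Of 12 tested fibroblast and matrix markers, 10 were lower and 1 higher with ANKRD9, and the summed level of the 14 genes of that list lay at 4193 to 4406 FPKM against 5104 to 5290 FPKM. Of 10 tested leukocyte markers, 5 were higher and none lower, with a summed level of 253.6 to 265.5 FPKM against 206.7 to 235.8 FPKM. Most of that sum was CTSS, at means of 159.9 and 143.6 FPKM, which did not pass and whose values overlapped between the groups. Among 5 adipocyte markers 3 were higher and 1 lower, at 39.5 to 41.4 against 34.1 to 35.5 FPKM in sum, and among 4 endothelial markers 2 were higher and 2 lower, at 22.3 to 22.8 against 18.6 to 19.8 FPKM. No listed marker was at 0 in all libraries, although the endothelial markers VWF and CDH5 had means of 0.14 and 0.328 FPKM and the fibroblast marker TCF21 one of 0.00737 FPKM. In bulk RNA, fewer cells of a type and less RNA per cell cannot be told apart, and the part of these cell types in the differences below was not tested.

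Of the 50 genes, 23 averaged 1 FPKM or more and were tested. With ANKRD9, 4 of them were higher and 8 lower at an adjusted p under 0.05 (limma, Benjamini-Hochberg over all genes tested), and 11 did not pass. That is 52.2% of those tested, beside 36.0% of all 11685 genes tested. By direction, 17.4% of the tested members were higher beside 16.3% of all genes, and 34.8% were lower beside 19.8% of all genes. The groups did not overlap for 15 of the 23 (4 higher and 11 lower), or 65.2%, beside 50.6% of all genes. The median log2 fold change of the 23 was -0.10, and that of all genes tested -0.01. All of the called differences were modest, between 0.19 and 0.54 in size on the log2(FPKM + 1) scale, and none reached 1. The number of lower members was 5 without ANKRD9 replicate 2 and also 5 without pcDNA3.1 replicate 2, whereas 4 were higher whichever single library was left out. Calls of 8 of the 12 held in every alternative that tested them, and the other 4, those of ADCY9, GUCY1B3, PDE5A and PDE3B, are qualified where the gene is described.

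**Figure D1:**
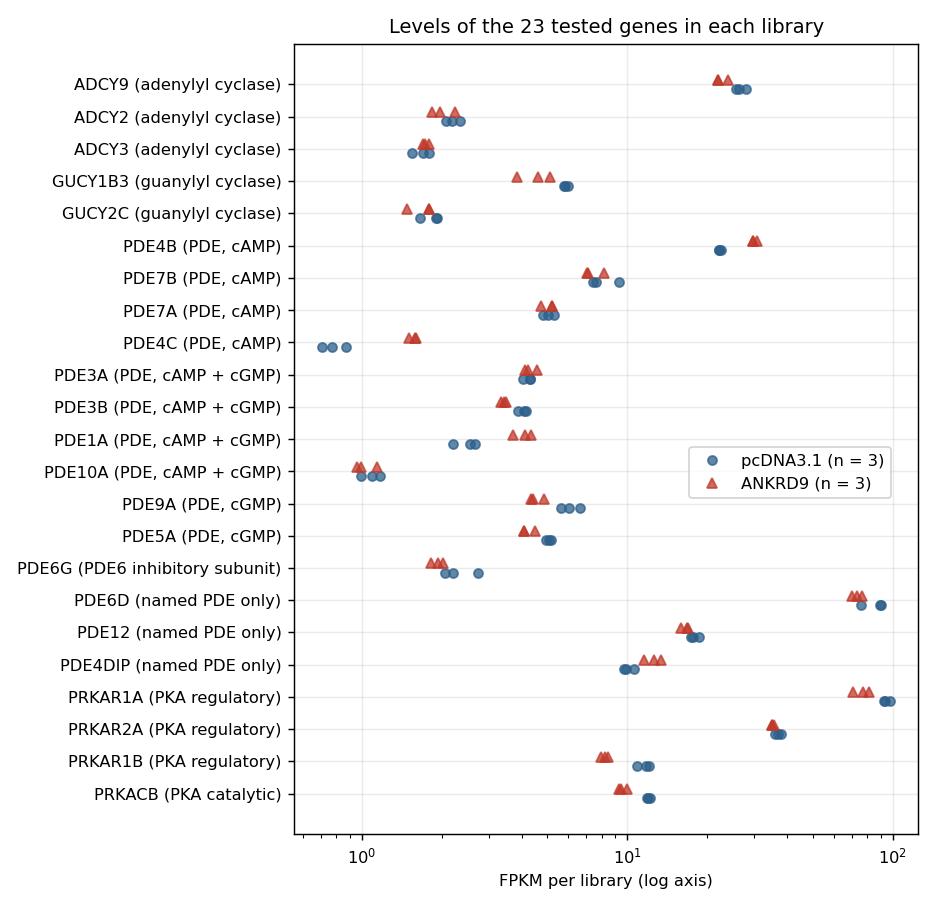
Level of each of the 23 tested genes in every library, in FPKM on a log axis, ordered by role; circles are the 3 pcDNA3.1 libraries and triangles the 3 ANKRD9 libraries. PRKAR1A and PDE6D lie highest, at group means of 73.5 to 94.5 FPKM, and ADCY9 and PDE4B stand above the other cyclases and phosphodiesterases.

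**Figure D2:**
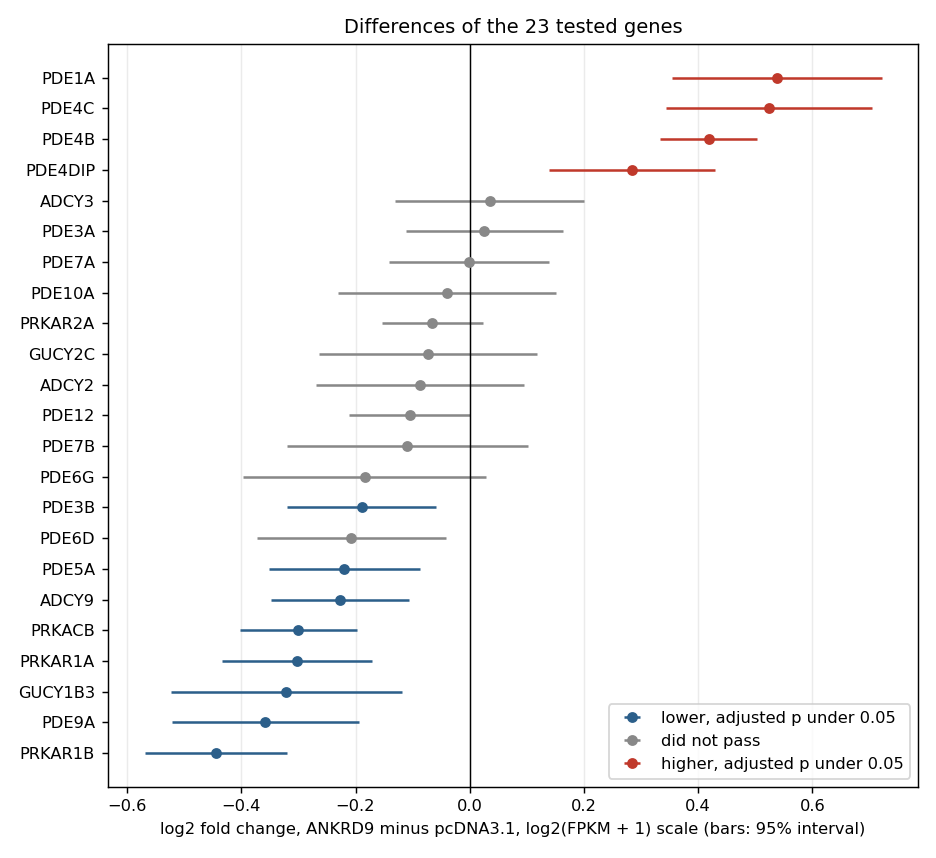
Log2 fold change of the 23 tested genes, ANKRD9 minus pcDNA3.1, on the log2(FPKM + 1) scale, with 95% intervals from limma; colours mark higher and lower genes past the threshold, and grey those that did not pass. The 4 higher genes are PDE1A, PDE4C, PDE4B and PDE4DIP, and the 8 lower genes run from PDE3B at -0.19 to PRKAR1B at -0.44.

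Upstream of the cyclases, receptors and G proteins were examined in a list of 39 genes, of which 36 were in the table and 15 were tested. Higher levels passed the test for 5, lower levels for 0, and 10 did not pass, with a median log2 fold change of 0.08. The share called in either direction, 33.3%, was no larger than the 36.0% of all genes tested. All of these calls were higher, whereas 16.3% of all genes tested were higher and 19.8% lower. The shares were not tested against each other. NOS2, the inducible synthase of nitric oxide, which activates soluble guanylyl cyclase, rose from 20.8 ± 0.810 to 33.1 ± 0.599 FPKM (SD, n = 3 each; adjusted p = 1.38e-04, limma). NPR2, which encodes the receptor guanylyl cyclase for C-type natriuretic peptide and lies outside the naming rule, was higher at 39.2 ± 1.90 against 34.4 ± 1.41 FPKM (adjusted p = 0.0246, limma). At these levels NPR2 stood above every guanylyl cyclase gene that the rule takes.

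The adrenomedullin and CGRP receptor accessory genes RAMP3 and RAMP1 rose, RAMP3 by 1.80-fold to 1.49 ± 0.220 FPKM and RAMP1 by 1.44-fold to 5.49 ± 1.10 FPKM (SD, n = 3). The control mean of RAMP3, 0.826 FPKM, was itself under the filter. The related accessory gene RAMP2 did not pass, at 2.58 against 2.07 FPKM (adjusted p = 0.221, limma). Nor did the receptor gene CALCRL of the same list, at 4.01 against 4.18 FPKM (adjusted p = 0.802, limma). GNAI2, for an inhibitory G protein subunit, rose 1.09-fold to 177.8 ± 2.59 FPKM. GNAI3 and GNAI1, for related inhibitory subunits, did not pass, at 182.4 against 182.4 FPKM and 12.2 against 12.4 FPKM. The call of NPR2 was lost without ANKRD9 replicate 1, pcDNA3.1 replicate 2 or pcDNA3.1 replicate 3 (adjusted p from 0.0657 to 0.0761, limma), and those of GNAI2 and RAMP1 each without any one of 5 libraries (adjusted p up to 0.101 and 0.118). GNAS, for the stimulatory subunit, had a mean of 19.0 FPKM, the adenosine receptor gene ADORA2B one of 36.4 FPKM and the prostaglandin receptor gene PTGER2 one of 12.6 FPKM, and none of the 3 passed.

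Adenylyl cyclases were represented mainly by ADCY9, which fell with ANKRD9. ADCY9 (chromosome 14: 12988229-13047021, GRCg6a, minus strand) encodes a membrane cyclase known in mammals for its weak response to forskolin. Its level was 22.0, 22.0 and 23.9 FPKM in the ANKRD9 libraries and 28.0, 25.6 and 26.3 FPKM in the control libraries. All 3 ANKRD9 values lay under all 3 control values. The difference was 1.18-fold, with a log2 fold change of -0.23 ± 0.05 (SE; adjusted p = 0.0129, limma), on 1813 to 2969 reads per library. The call was narrowly lost without ANKRD9 replicate 2 (adjusted p = 0.0534).

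ADCY9 made up 80.7% ± 0.825 of the summed FPKM of the 7 membrane cyclase genes with ANKRD9 and 82.2% ± 0.423 in the controls (SD, n = 3 each). FPKM is per length of the gene model, so such shares across genes depend on the models as annotated. ADCY2, for a cyclase that responds to G protein beta-gamma subunits, stood at 2.02 ± 0.207 and 2.20 ± 0.14 FPKM, and ADCY3, known from olfactory signalling, at 1.74 ± 0.0395 and 1.68 ± 0.126 FPKM, with ANKRD9 and the vector in that order. Neither passed. The 95% interval of the log2 fold change was -0.27 to 0.10 for ADCY2 and -0.13 to 0.20 for ADCY3. A direct test of their difference from ADCY9 was not made, and this scale understates the changes of low genes. The remaining membrane cyclases were under the filter, with group means of 0.784 and 0.892 FPKM for ADCY7, 0.507 and 0.661 FPKM for ADCY5 and 0.336 and 0.352 FPKM for ADCY8, while ADCY1 had at most 5 reads in any library. All 8 genes named ADCY10-like had no read in any library. A count of 3 reads, taken as the floor, would have been between 0.0277 FPKM for the longest and 0.361 FPKM for the shortest of them, which covers counting error only.

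Among the guanylyl cyclase genes that the rule takes, the beta subunit gene of the soluble enzyme was the most abundant. GUCY1B3 (chromosome 4: 20813904-20854198, plus strand) encodes the subunit that carries the heme by which nitric oxide is sensed, and the enzyme is known to work as a pair of an alpha and a beta subunit. It stood at 3.84, 5.13 and 4.60 FPKM with ANKRD9 and at 5.97, 5.84 and 5.79 FPKM in the controls. The control libraries were tightly grouped, the ANKRD9 libraries spread more widely, and the groups did not overlap. The fall was 1.30-fold, at a log2 fold change of -0.32 ± 0.09 (SE; adjusted p = 0.0245, limma). It did not pass without ANKRD9 replicate 3 or without any one of the 3 control libraries (adjusted p from 0.0521 to 0.0608, limma), nor when no filter was applied (adjusted p = 0.0683).

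The alpha subunit genes were almost unread. GUCY1A3, which lies 3511 bases before GUCY1B3 on the same strand, had 8 reads over the 6 libraries together, and GUCY1A2 had 28, where GUCY1B3 had 2374. GUCY1B4, a second beta subunit gene, was just under the filter at group means of 0.921 and 1.07 FPKM with overlapping values. GUCY2C, which encodes the gut receptor for guanylin peptides in mammals, was detected at 1.69 ± 0.175 FPKM with ANKRD9 and 1.82 ± 0.145 FPKM in the controls (SD, n = 3 each) and did not pass (95% interval of the log2 fold change -0.26 to 0.12). GUCY2F, a retinal form, had at most 6 reads per library.

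**Figure D3:**
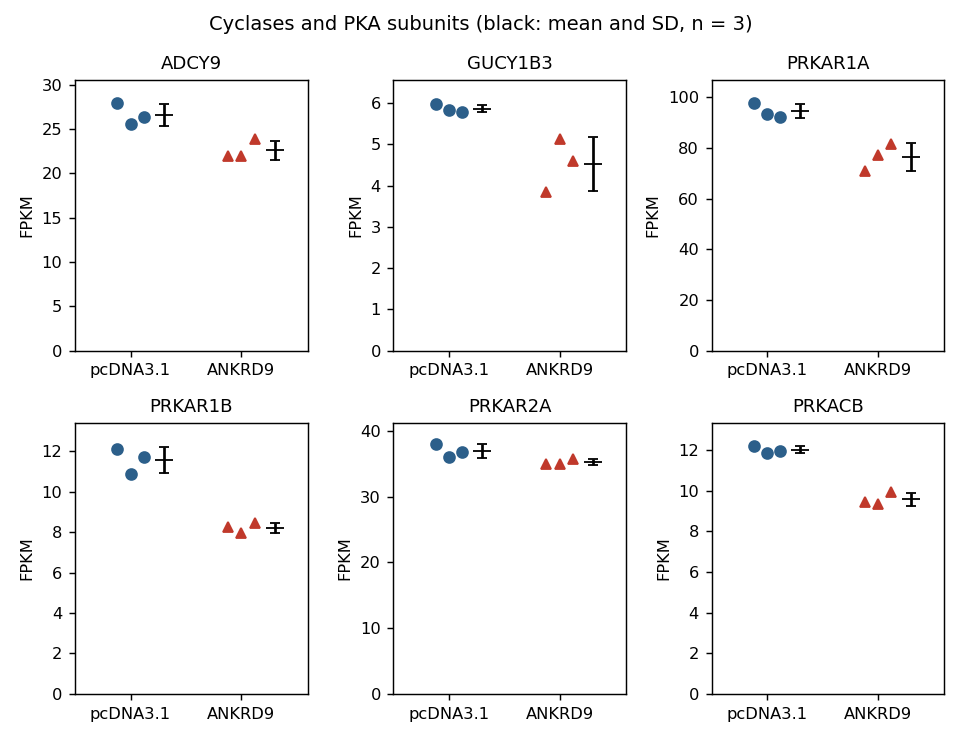
FPKM of ADCY9, GUCY1B3 and 4 PKA subunit genes in each library (circles pcDNA3.1, triangles ANKRD9; black marks are the mean and SD of 3 libraries; every axis starts at 0). The groups do not overlap for any of the 6 genes, as for 50.6% of all genes tested. All but PRKAR2A were past the threshold, and PRKAR2A has the smallest difference.

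Phosphodiesterase genes moved in both directions. The 18 genes for enzymes known to cleave cyclic nucleotides included 10 that were tested, of which 3 were higher, 3 lower and 4 did not pass. Of all genes tested, 16.3% were higher and 19.8% lower. Genes of families that cleave cAMP alone or cAMP and cGMP were among those that rose (PDE4B, PDE4C, PDE1A), whereas both tested genes of cGMP-specific enzymes fell (PDE5A, PDE9A), and PDE3B, of the family whose cAMP hydrolysis cGMP inhibits, also fell.

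PDE4B was the most abundant of the 18. It encodes a cAMP-specific phosphodiesterase of the family inhibited by rolipram and is well known from leukocytes, and lies on chromosome 8: 28731898-28875788, plus strand. Its level was 29.6, 30.7 and 29.9 FPKM with ANKRD9 and 22.1, 22.5 and 22.1 FPKM in the controls. Replicates differed by little and the groups stood well apart. The rise was 1.35-fold, at a log2 fold change of 0.42 ± 0.04 (SE; 95% interval 0.33 to 0.50; adjusted p = 2.93e-04, limma), and it rested on 2171 to 3893 reads per library. Over all alternatives its log2 fold change stayed between 0.40 and 0.44. Of 10 tested leukocyte markers 5 were also higher with ANKRD9 and none was lower: CD3E by 2.41-fold, NCF1 by 1.72-fold, RAC2 by 1.48-fold, LAPTM5 by 1.16-fold, and SPI1 at 8.88 ± 0.701 against 5.90 ± 0.489 FPKM (SD, n = 3 each). Of the 5 that did not pass, PTPRC, which encodes CD45, stood at 2.18 ± 0.305 against 1.75 ± 0.166 FPKM (SD, n = 3 each). CTSS likewise had a higher mean with ANKRD9, at 159.9 against 143.6 FPKM. Means were lower with ANKRD9 for the rest: CD74 at 19.23 against 22.55 FPKM, MARCO at 5.10 against 5.39 FPKM and LCP1 at 3.98 against 4.11 FPKM. A further 6 listed markers were under the filter and not tested. Of these, TLR4 (0.101 against 0.191 FPKM, without overlap), CD4 (0.345 against 0.443) and CYBB (0.983 against 1.00) had lower means with ANKRD9. CSF1R (1.00 against 0.893), LY86 (0.246 against 0.215) and IKZF1 (0.109 against 0.0990) had higher ones. Among all genes tested, 16.3% were higher and 19.8% lower, and the counts of the short leukocyte list were not tested against these shares. The part of leukocytes in the rise of PDE4B was not tested.

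PDE4C, a second gene of that family (chromosome 28: 4084333-4091257, plus strand), was 2.00-fold higher. It was measured at 1.59, 1.61 and 1.51 FPKM in the ANKRD9 libraries and at 0.774, 0.870 and 0.710 FPKM in the control libraries. The lowest ANKRD9 library was far above the highest control library. On the log2(FPKM + 1) scale the change was 0.52 ± 0.08 (SE; adjusted p = 0.00235, limma), and with a pseudocount of 0.1 it was 0.92. Its control mean of 0.785 FPKM was under the filter of 1 FPKM, so it was tested because of its level with ANKRD9; without a filter the adjusted p was 0.00400 (limma). Reads per library ran from 64 to 181. The third PDE4 gene, PDE4D, was under the filter at 0.627 and 0.676 FPKM, and PDE4B made up 93.2% ± 0.166 of the summed FPKM of the 3 genes with ANKRD9 and 93.8% ± 0.269 with the vector (SD, n = 3 each).

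PDE1A, for a phosphodiesterase that calcium and calmodulin activate and that takes both messengers, rose 1.63-fold. The ANKRD9 libraries had 3.70, 4.11 and 4.32 FPKM and the control libraries 2.66, 2.55 and 2.21 FPKM. No control value reached the ANKRD9 values. The log2 fold change was 0.54 ± 0.08 (SE; adjusted p = 0.00228, limma), the largest in size of the 23 tested genes on this scale. PDE1A lies on chromosome 7: 13916604-14102810, plus strand. Its relatives PDE1B and PDE1C were under the filter, PDE1B at 0.343 and 0.337 FPKM and PDE1C at 0.302 with ANKRD9 against 0.397 FPKM in the controls. PDE1C values did not overlap between the groups, but when no filter was applied it did not pass (adjusted p = 0.0692, limma), nor did any of the other 18 members added in that way.

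Of the PDE3 genes one passed the test. PDE3B, known in mammals from the insulin response of fat and liver cells, fell 1.18-fold. It stood at 3.48, 3.34 and 3.42 FPKM with ANKRD9 and at 3.87, 4.15 and 4.08 FPKM in the controls. The groups were separate but close together, and the log2 fold change of -0.19 ± 0.06 (SE; adjusted p = 0.0331, limma) was the smallest in size among the 12 called genes. It was lost without any single library other than pcDNA3.1 replicate 1 (adjusted p from 0.0663 to 0.105, limma) and without a filter (adjusted p = 0.0751). PDE3A was measured at 4.31 ± 0.238 and 4.22 ± 0.144 FPKM (SD, n = 3 each) and did not pass, with a 95% interval of -0.11 to 0.16. A direct test of the difference between these genes was not made.

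The tested genes of cGMP-specific phosphodiesterases were both lower. PDE9A, for the enzyme with the highest affinity for cGMP, had 4.42, 4.34 and 4.85 FPKM in the ANKRD9 libraries and 5.63, 6.04 and 6.63 FPKM in the control libraries. The groups did not overlap. It fell 1.35-fold, with a log2 fold change of -0.36 ± 0.07 (SE; adjusted p = 0.00728, limma), on 200 to 395 reads per library. PDE5A, the target of sildenafil and abundant in smooth muscle, stood at 4.09, 4.07 and 4.48 FPKM with ANKRD9 and at 5.17, 5.07 and 4.95 FPKM in the controls. Again no value of one group fell within the other. Its fall was 1.20-fold, at -0.22 ± 0.06 on the log2 scale (adjusted p = 0.0206, limma). The call did not hold without ANKRD9 replicate 1 (adjusted p = 0.0651), ANKRD9 replicate 2 (adjusted p = 0.0752) or pcDNA3.1 replicate 2 (adjusted p = 0.0528), nor without a filter (adjusted p = 0.0517).

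**Figure D4:**
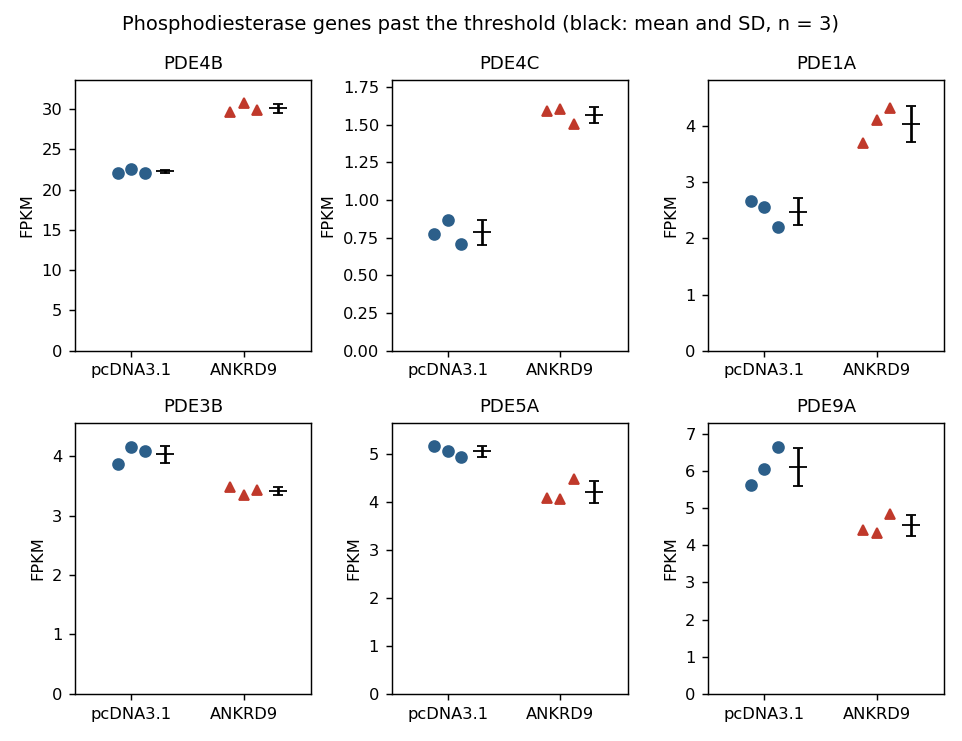
FPKM of the 6 phosphodiesterase genes past the threshold in each library (circles pcDNA3.1, triangles ANKRD9; black marks are the mean and SD of 3 libraries; every axis starts at 0). PDE4B, PDE4C and PDE1A lie higher in every ANKRD9 library than in any control library, and PDE3B, PDE5A and PDE9A lower. Of all genes tested, 50.6% likewise had groups that did not overlap.

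Several phosphodiesterase genes did not pass. PDE7A, cAMP-specific and known from T cells, was measured at 5.04 ± 0.277 FPKM with ANKRD9 and 5.05 ± 0.233 FPKM in the controls, with a 95% interval of the log2 fold change from -0.14 to 0.14. Its relative PDE7B, the second most abundant of the 18 enzymes, stood at 7.44 ± 0.601 and 8.12 ± 1.04 FPKM, and PDE10A, best known from the striatum, at 1.03 ± 0.10 and 1.08 ± 0.0845 FPKM (SD, n = 3 each). PDE8A was under the filter at 0.857 and 0.781 FPKM, and PDE8B and PDE11A had means under 0.1 FPKM. The photoreceptor genes PDE6B, PDE6C and PDE6H had 0 to 28 reads per library. PDE6G, for the inhibitory subunit of the rod enzyme, stood at 1.93 ± 0.105 and 2.33 ± 0.363 FPKM and did not pass (adjusted p = 0.155, limma). It overlaps CCDC137 on the other strand over 1755 bases, a gene with a mean of 13.6 FPKM, and since no source states a strand setting, reads of one may be counted for the other.

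Summed over the 18 enzyme genes, phosphodiesterase transcripts stood at 68.2 ± 1.58 FPKM with ANKRD9 and 61.8 ± 0.819 FPKM in the controls (SD, n = 3 each). The 7 cAMP-specific genes together had 45.1, 45.6 and 46.3 FPKM in the ANKRD9 libraries and 38.7, 37.2 and 37.3 FPKM in the control libraries. The 4 catalytic genes of cGMP-specific enzymes together had 8.71, 8.70 and 9.69 against 11.1, 11.4 and 11.7 FPKM. Neither pair of groups overlapped, and the directions were opposite. The higher cAMP-specific sum was nearly all PDE4B: the other 6 genes of that class summed to 15.6 ± 0.775 FPKM with ANKRD9 and 15.5 ± 1.03 FPKM in the controls, and their groups overlapped. PDE4B alone held 44.1% ± 1.31 of the summed level with ANKRD9 and 36.0% ± 0.806 with the vector. The summed phosphodiesterase level was 2.44 ± 0.0584 times that of the membrane adenylyl cyclases with ANKRD9 and 1.91 ± 0.0658 times in the controls. That sum includes the cGMP-specific genes, whereas adenylyl cyclases make cAMP, so the ratio is not a balance of either messenger. These sums are descriptions of transcript levels and carry no test, and they say nothing of enzyme activity, which was not measured here.

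**Figure D5:**
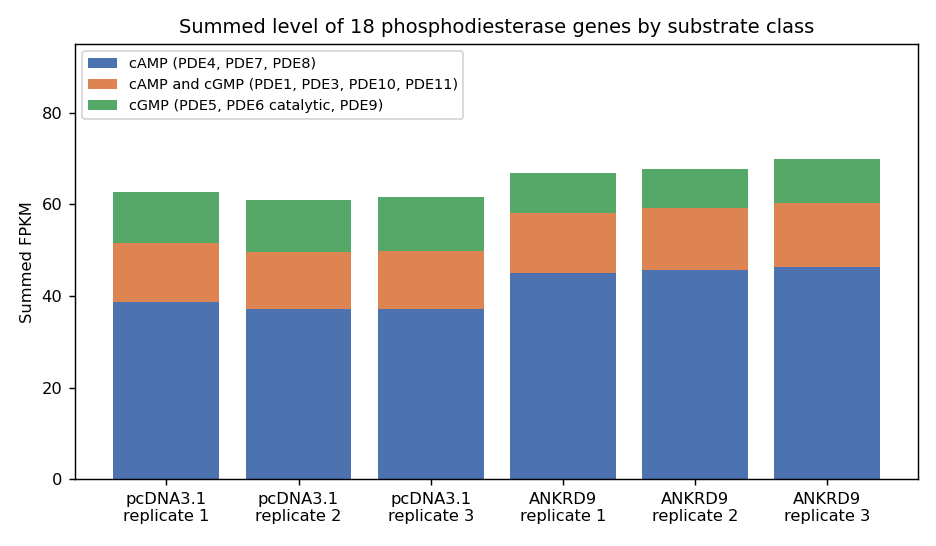
Summed FPKM of 18 phosphodiesterase genes in each library, stacked by the messenger that the enzymes are known to cleave. The cAMP-specific part reaches 45.1 to 46.3 FPKM in the ANKRD9 libraries and 37.2 to 38.7 FPKM in the pcDNA3.1 libraries, and the cGMP-specific part 8.70 to 9.69 against 11.1 to 11.7 FPKM; without PDE4B the cAMP-specific genes sum to means of 15.6 and 15.5 FPKM.

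The 3 genes with a PDE name that are known for roles outside cyclic nucleotide turnover were all well expressed. PDE4DIP, for myomegalin, a protein of the centrosome and Golgi that binds PDE4D, rose 1.24-fold, from 10.6, 9.75 and 9.90 FPKM in the controls to 13.4, 12.6 and 11.5 FPKM with ANKRD9 (log2 fold change 0.28 ± 0.06, SE; adjusted p = 0.0111, limma). PDE6D had 76.7, 73.4 and 70.5 FPKM with ANKRD9 and 76.0, 89.5 and 90.2 FPKM in the controls. One control library, pcDNA3.1 replicate 1, lay within the ANKRD9 range, and the gene did not pass (adjusted p = 0.0554, limma), although without that library it did (adjusted p = 0.00533). PDE12 stood at 16.5 ± 0.529 and 17.9 ± 0.632 FPKM and did not pass either (adjusted p = 0.111).

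PKA subunit genes were lower with ANKRD9 in 3 of the 4 cases tested, where 19.8% of all genes tested were lower. PRKAR1A, for the main type I regulatory subunit (chromosome 18: 7853033-7869257, plus strand), had the highest mean of all 50 genes in both groups. It stood at 70.7, 77.3 and 81.5 FPKM in the ANKRD9 libraries and at 97.7, 93.5 and 92.3 FPKM in the control libraries. The groups were clearly apart. It fell 1.24-fold, with a log2 fold change of -0.30 ± 0.06 (SE; adjusted p = 0.00584, limma), on 4737 to 8017 reads.

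PRKAR1B, the second type I gene, known chiefly from brain in mammals (chromosome 14: 2436017-2524531, minus strand), had 8.27, 7.95 and 8.43 FPKM with ANKRD9 and 12.1, 10.8 and 11.7 FPKM in the controls. All ANKRD9 libraries were lower by a wide margin. Its fall of 1.41-fold, -0.44 ± 0.05 on the log2 scale (SE; adjusted p = 0.00104, limma), was the largest among the lower members. PRKAR2A, the type II gene, stood at 35.0, 34.9 and 35.8 FPKM with ANKRD9 and at 38.0, 36.0 and 36.8 FPKM in the controls. The groups did not overlap, but by a small gap, and it did not pass (log2 fold change -0.07, 95% interval -0.15 to 0.02; adjusted p = 0.212, limma). PRKAR2B was under the filter, at 0.570 and 0.534 FPKM.

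PRKACB carried nearly all catalytic subunit transcripts. The gene, on chromosome 8: 17037990-17110235, minus strand, had 9.45, 9.33 and 9.94 FPKM with ANKRD9 and 12.2, 11.9 and 11.97 FPKM in the controls. Replicates agreed closely and the groups were apart. The fall was 1.25-fold, at -0.30 ± 0.04 on the log2 scale (SE; adjusted p = 0.00237, limma). PRKACB overlaps TTLL7 on the opposite strand over 5505 bases, and TTLL7 had a mean of 1.55 FPKM. PRKACA, the main catalytic gene of most mammalian tissues, had only 20 reads over the 6 libraries.

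Regulatory transcripts summed to 120.5 ± 5.89 FPKM with ANKRD9 and 143.5 ± 4.11 FPKM in the controls, and catalytic transcripts to 9.66 ± 0.306 and 12.1 ± 0.195 FPKM. The summed regulatory level was 12.5 ± 0.361 times the catalytic level with ANKRD9 and 11.9 ± 0.153 times with the vector (SD, n = 3 each), and the library values of this ratio, 12.1, 12.7 and 12.6 against 12.1, 11.8 and 11.8, overlapped. Type I genes made up 70.3% ± 1.15 of the regulatory FPKM with ANKRD9 and 73.9% ± 0.295 without it, with no overlap between the groups. These shares rest on members described above and carry no test of their own.

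Of 57 other tested genes of the pathway, upstream and downstream, 13 rose and 7 fell. The share called in either direction was 35.1% beside 36.0% of all genes tested, so in total they were called about as often as genes in general. By direction more of them rose than fell, whereas 16.3% of all genes tested were higher and 19.8% lower. This difference in direction was not tested. The 57 genes came from 5 lists: the receptors and G proteins above, effectors, anchoring proteins, CREB family genes and genes known to be induced by cAMP. These lists held 105 genes of the table outside the 50, and the median log2 fold change of those tested was 0.03. The number that fell was 4 without ANKRD9 replicate 1, without ANKRD9 replicate 2 or without pcDNA3.1 replicate 1, and 3 without pcDNA3.1 replicate 3. Of the 20 calls, 11 held in every alternative that tested the gene.

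Of 8 tested effector genes, 2 were lower and 6 did not pass, a share called of 25% beside the same 36.0%. Of all genes tested, 19.8% were lower. POPDC3, for a cAMP-binding membrane protein of striated muscle, was 1.46-fold lower, at 17.9 ± 0.260 against 26.2 ± 1.52 FPKM (SD, n = 3 each; adjusted p = 3.98e-04, limma). PKIA, for a peptide inhibitor of the PKA catalytic subunit, was 1.21-fold lower, at 35.2 ± 3.19 against 42.6 ± 1.83 FPKM (adjusted p = 0.0192, limma; 0.0647 without pcDNA3.1 replicate 3). The related inhibitor gene PKIG was more abundant, at 105.7 ± 7.60 against 101.8 ± 1.54 FPKM, and did not pass (adjusted p = 0.499, limma). BVES and POPDC2, of the same family as POPDC3, did not pass, at 15.8 against 17.2 FPKM and 4.32 against 3.87 FPKM. PRKG1, for the cGMP-dependent kinase, had a mean of 26.6 FPKM and RAPGEF4, for a cAMP-regulated exchange factor, one of 2.11 FPKM, and neither passed. Genes of cyclic nucleotide-gated channels, 10 of the 20 listed, all had means under 1 FPKM.

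Among 12 tested genes of A-kinase anchoring proteins, which hold PKA at places in the cell, 2 were lower and 10 did not pass. The share called was 16.7%, all of it lower, beside 36.0% of all genes tested in either direction and 19.8% lower. AKAP12, for the scaffold gravin, was 1.30-fold lower, at 8.16 ± 0.679 against 10.6 ± 0.761 FPKM (SD, n = 3 each; adjusted p = 0.0101, limma). AKAP1, of the outer mitochondrial membrane, passed only narrowly, at 26.7 ± 1.25 against 29.7 ± 1.07 FPKM (adjusted p = 0.0491), and was lost without any one of 5 libraries (adjusted p up to 0.146).

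The CREB family and its partners gave 2 higher and 3 lower genes of 13 tested, or 38.5%, near the 36.0% of all genes. The co-activator genes CREBBP and EP300 rose, CREBBP by 1.23-fold to 15.9 ± 1.01 FPKM and EP300 by 1.17-fold to 14.2 ± 0.257 FPKM (SD, n = 3), and PPP1CB, for a catalytic subunit of the phosphatase that reverses CREB phosphorylation, fell 1.28-fold to 110.2 ± 5.67 FPKM. ATF1, of the CREB family itself, was 1.16-fold lower and SIK1, for a kinase that keeps CREB co-activators out of the nucleus, 1.13-fold lower. The adjusted p ran from 0.00161 for PPP1CB to 0.0406 for ATF1 (limma), and the calls of EP300, ATF1 and SIK1 were lost without any one of 4, 4 and 5 libraries in that order (adjusted p up to 0.0683, 0.125 and 0.106). CREB1 and CREM, with means of 8.82 and 1.87 FPKM, did not pass. Nor did PPP1CA and PPP1CC, for other catalytic subunits of the same phosphatase as PPP1CB, at 229.8 against 226.1 FPKM and 63.1 against 60.4 FPKM. SIK2 and SIK3, relatives of SIK1, did not pass either, at 8.62 against 8.41 FPKM and 5.65 against 4.75 FPKM.

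Of 12 tested genes known from other cells to be induced by cAMP, 6 were higher, 1 was lower and 5 did not pass. The share called was 58.3%, beside 36.0% of all genes tested. Their median log2 fold change was 0.22, beside -0.01 for all genes tested. This list was chosen with earlier results of these data known, so neither value is independent of them. DUSP1, for a MAP kinase phosphatase, was 1.41-fold higher, at 61.0 ± 1.78 against 43.2 ± 1.71 FPKM (SD, n = 3 each; adjusted p = 3.10e-04, limma), TIPARP rose 1.30-fold to 65.3 ± 1.90 FPKM, the nuclear receptor gene NR4A3 1.38-fold to 4.66 ± 0.216 FPKM, and the transcription factor genes CEBPB and MAFF each 1.20-fold. RGS2 also rose, by 1.24-fold, a call lost without either of 2 libraries (adjusted p = 0.0507 and 0.0571), and SIK1 was the gene that fell. Many of these genes are also induced by growth factors and stress, so the list is not specific to cAMP. FOS, NR4A1 and PER2, with means of 10.8, 1.54 and 5.19 FPKM, did not pass. A further 9 of the 21 listed genes found in the table were under the filter and not tested. NR4A2 was among them, at 1.20 ± 0.149 FPKM with ANKRD9 and 0.276 ± 0.0761 FPKM in the controls (SD, n = 3 each), on 16 to 104 reads per library. SST, also among them, had a lower mean with ANKRD9 but at most 2 reads in any library.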

How the data were processed

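RNA was sequenced from 3 ANKRD9 and 3 pcDNA3.1 libraries of polyadenylated RNA. The NEBNext Ultra kit was the library kit, per the labels' protocols. The genome build was GRCg6a and CASAVA was among the tools, per the submitters' processing notes; no aligner, counting program or strand setting is named in the labels or file headers. The authors deposited FPKM per gene with gene lengths and positions, per the file headers, and 0 value columns were left without a sample.

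FPKM times gene length was a whole multiple of one step per library for 100% of values above 0 (tolerance 0.01), which gave whole reads. The median-of-ratios factors of the deposited FPKM were equal in all 6 libraries, so rescaling by them changed nothing.

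Genes averaging 1 FPKM or more over the libraries were tested with limma 3.58.1 (R 4.3.3) on log2(FPKM + 1), group as the only term, eBayes with a mean trend, Benjamini-Hochberg over all 11685 genes tested and a threshold of 0.05; folds are ratios of group means. Fold changes on this scale understate those of low genes. The procedure was tested on simulated data, with far fewer changed genes than were called here and the same dispersion for every gene. That test therefore does not give the error rate in these data. Members and lists were chosen with earlier results of these data known. Named genes are ANKRD9, all tested members, and up to 5 called genes of smallest adjusted p per pathway list; other names were chosen after their values were seen. Chromosome names came from identifiers shared with NCBI's table for chicken (assembly GRCg7b); all 50 members matched, and no coordinates of that assembly were used. Alternatives were other pseudocounts, filters, scalings and variance models, a replicate block, and leaving out each library. No sequence was used here.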

Additional observations from a re-analysis of the deposited data

How the results depend on the processing

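Among the members, 4 were higher in all alternatives but a filter of at least 5 FPKM, where 2 were, since PDE4C and PDE1A were then not tested. The 8 lower were 5 with no filter and 5 to 8 without a single library. Over all genes, 1255 to 1764 were higher without a single library, fewest without ANKRD9 replicate 2, against 1900. The 13 higher pathway genes were 16 with no filter and 9 to 12 without a single library. The 7 lower pathway genes were 4 with the total of recovered reads, 4 without a mean trend, 4 with a replicate block, and 3 to 6 without a single library. ANKRD9 stayed between 3.21 and 3.35 on the log2 scale without a single library. Signs turned only for members near 0 that did not pass: PDE7A (0.0192 with the total of recovered reads, -0.0284 to 0.0367 without a single library), PDE3A (-0.0102 to 0.0516 without a single library) and ADCY3 (-0.0016 to 0.0658 without a single library). PDE6D passed with a filter of at least 5 FPKM (adjusted p = 0.0440, limma). The cause of these changes was not tested.

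Libraries with the same number in both groups did not deviate together (correlations -0.196, 0.034 and -0.08). Those with different numbers had correlations from -0.105 to 0.16. No pairing by number was seen, but this cannot settle whether the libraries were made in pairs. With the replicate block 4 members were higher and 6 lower; PDE5A and PDE3B were the calls lost (adjusted p = 0.0656 and 0.0943, limma). With it 1420 genes were higher and 1693 lower, against 1900 and 2310. Members with under 100 reads in a library, PDE4C among them, have the coarsest values.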

Other observations

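The 8 genes named ADCY10-like, with no read in any library, all lie on chromosome Z, 7 of them between 73614090 and 73732401 and ADCY10L11 at 78708100-78717358 (GRCg6a). The gene named ADCY5 in the table carries the symbol ADCY6 in NCBI's table for GRCg7b, with ADCY5 as a synonym, and the gene named GUCY2F carries the symbol GUCY2D there, so which mammalian gene either corresponds to is not settled by these sources. The table's values for both are under the filter.

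Library totals that would give the deposited FPKM can be compared with the sums of whole reads. Those totals exceeded the sums by 1.46%, 1.11% and 1.02% for ANKRD9 replicates 1 to 3, while for pcDNA3.1 replicates 1 to 3 the offsets were -0.471%, -1.08% and -0.161%. With the sums as divisors, the median log2 fold change of all genes moved from -0.01 to 0.02, and 4 members were higher and 8 lower, as before.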
